A study of Mus musculus with 8 samples.

Results

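The endoplasmic reticulum (ER) unfolded protein response was followed here through 10 genes that are classical outputs of its ATF6 and XBP1 branches: *Hspa5*, *Hsp90b1*, *Dnajb9*, *Sdf2l1*, *Xbp1*, *Herpud1*, *Pdia4*, *Pdia6*, *Creld2* and *Manf*. They were taken by name from the deposited RNA-seq table, with no filter on their values. The set was, however, chosen with earlier results of these data known. All 10 were found among its 50600 gene names, and all 10 were among the 10222 genes that were tested. The cells, JUN TetON ESCs, carry a doxycycline-inducible JUN (genotype c-Jun_TetOn_mESC) in OG2 transgenic mouse embryonic stem cells of mixed 129SVJ, C57B6 and CBA strain. They were grown without feeders in 2i medium with LIF. Every group, the DMSO control included, received 2 μg/ml doxycycline, so no group without JUN induction was analysed here. The 4 groups were doxycycline with DMSO alone, plus PFI-3 (an inhibitor of the BRG1 bromodomain), plus BI-9564 (an inhibitor of the BRD7 and BRD9 bromodomains) or plus both compounds (P+B), and each had 2 libraries. The labels give a treatment of 6 h, whereas the study's supplement describes a JUN induction longer than the time with the compounds. No label gives the dose of a compound, and the sources do not settle whether P+B held each compound at its single dose. P+B is therefore compared with the single compounds as a treatment, not as the addition of 1 compound to the other.

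The ER folds and glycosylates the proteins that a cell secretes or places in its membranes. When unfolded chains build up in it, the sensors IRE1, ATF6 and PERK are set free or activated. IRE1 splices *Xbp1* mRNA and so gives the active transcription factor XBP1, and ATF6 moves to the Golgi and is cut there into an active fragment. Both factors raise chaperones, folding enzymes and degradation factors of the ER. PERK slows translation and raises ATF4, which drives a different set of genes for amino acid supply and redox balance. The values here are per gene, so spliced and unspliced *Xbp1* mRNA were not separated, and no protein was measured.

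The mean over the 10 genes was highest with PFI-3 and lowest with BI-9564, with P+B close to DMSO. *Hsp90b1*, *Herpud1*, *Pdia4*, *Pdia6* and *Manf* had this order of the single compounds around DMSO in every library. *Hspa5* had it too but read as high with P+B as with PFI-3. Of all tested genes, 16.5% had both PFI-3 libraries above both DMSO libraries, and 18.3% had both BI-9564 libraries below them. The share that had both at once is not given here. *Creld2* was above DMSO in all treatments, *Xbp1* was lowest with P+B, and *Dnajb9* and *Sdf2l1* overlapped between groups. Over the 10 genes, the mean of log2(TPM + 1), centred for each gene on its 8 libraries, was 0.21 and 0.23 in the PFI-3 libraries and −0.14 and −0.28 in the BI-9564 libraries. It was 0.03 and −0.03 under DMSO and 0.01 and −0.04 under P+B. The differences were small for most genes, and in bulk RNA fewer cells that express a gene and less RNA per cell cannot be told apart. *Xbp1*, which fell with P+B against DMSO, and *Manf*, which was lower with BI-9564 than with PFI-3, were the 2 cases that passed the test (adjusted p under 0.05 in limma and a fold of at least 1.5).

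All values are TPM, a share of all transcripts scaled to a fixed total, which the authors had made whole numbers. They are scaled for transcript length, so levels can be set side by side between genes. With DMSO the order of the mean levels was *Hsp90b1* (404 TPM), *Hspa5* (382), *Pdia6* (202), *Manf* (164), *Pdia4* (148), *Creld2* (61), *Xbp1* (43), *Sdf2l1* (31), *Herpud1* (21) and *Dnajb9* (9). No neighbours in this order overlapped between the DMSO libraries. Over all 8 libraries, the ranges of *Hsp90b1* and *Hspa5*, of *Pdia6* and *Manf*, of *Manf* and *Pdia4*, of *Xbp1* and *Sdf2l1*, and of *Sdf2l1* and *Herpud1* overlapped. Within each library, however, *Pdia6* read above *Manf*, and *Sdf2l1* read above *Herpud1*. The order of *Hsp90b1* and *Hspa5*, of *Manf* and *Pdia4*, and of *Xbp1* and *Sdf2l1* changed in some libraries with a compound. The span across the libraries differed too. The highest library was 2.09 times the lowest for *Xbp1* and 1.93 times for both *Manf* and *Herpud1*, but only 1.33 times for *Creld2* and 1.38 times for *Pdia6*.

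**Figure D1:**
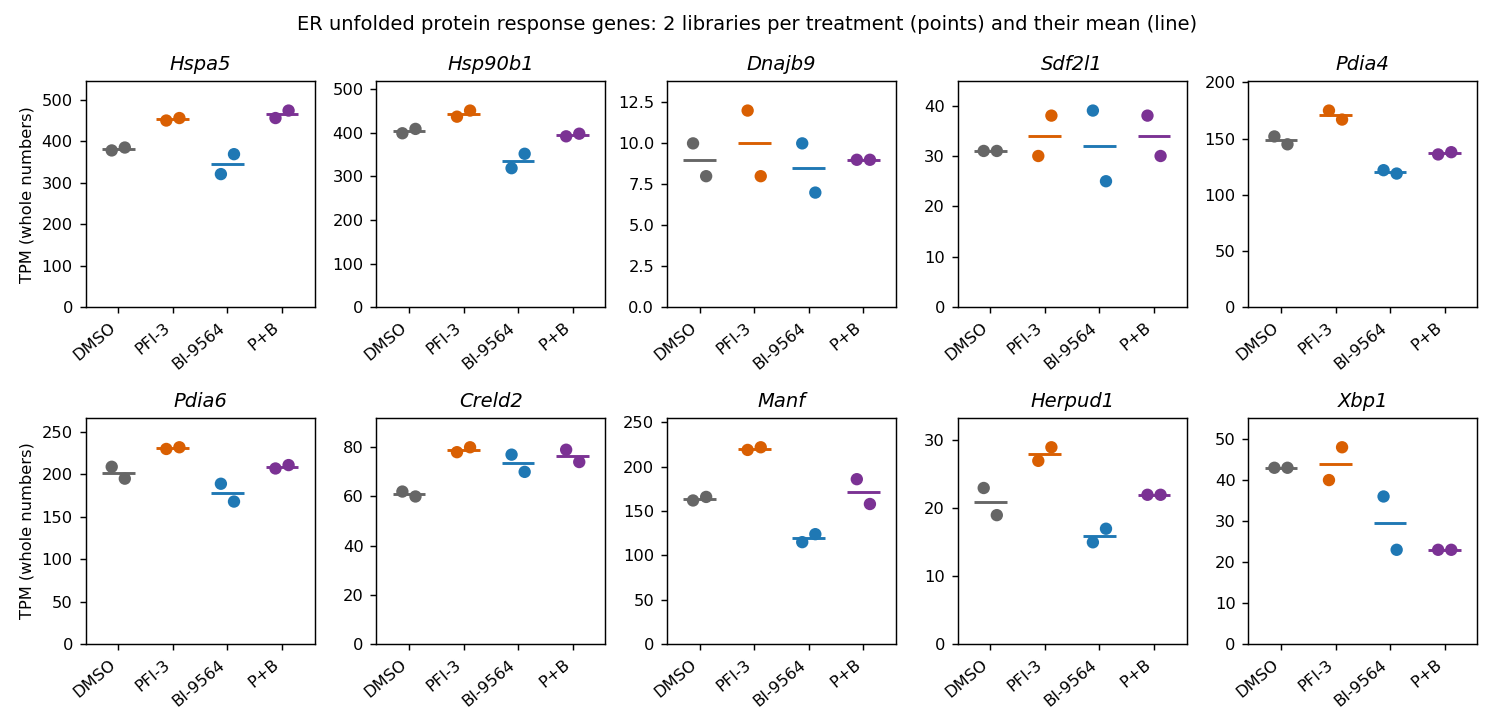
Values of the 10 genes by treatment. Each panel is a gene, the horizontal axis gives the 4 treatments, the vertical axis gives TPM from 0, each point is a library and each line is the mean of the 2 libraries of a group. Manf runs from 219 and 222 TPM under PFI-3 to 115 and 124 under BI-9564, while both P+B libraries of Xbp1 lie at 23.

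Promoters of 9 of the 10 genes were found in the RefSeq promoter table (GRCm38.p6), and *Manf* was not. ER stress elements are the sequences that ATF6 and XBP1 are known to use together with NF-Y. The form called ERSE is CCAAT, then 9 bases of any kind, then CCACG, and ERSE-II is ATTGG, 1 base, then CCACG. Both were searched on both strands, from 250 bases before to 50 after the start of each gene. An ERSE lay in 4 of the 9 windows, against 39 of 32851 RefSeq promoters (0.119%), and an ERSE-II lay in 1, against 12 promoters (0.0365%). Neither element lay in the windows of *Xbp1*, *Dnajb9*, *Sdf2l1* and *Pdia4*. The 250 bases before the RefSeq start are shown for the 5 genes that hold such an element, in capitals, and for *Xbp1*. Each is read 5′ to 3′ on the strand of its gene.
Hspa5: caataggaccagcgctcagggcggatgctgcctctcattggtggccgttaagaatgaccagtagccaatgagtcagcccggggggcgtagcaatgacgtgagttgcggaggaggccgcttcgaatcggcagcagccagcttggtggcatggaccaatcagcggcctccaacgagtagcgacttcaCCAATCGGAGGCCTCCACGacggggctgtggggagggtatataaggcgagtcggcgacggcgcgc
Hsp90b1: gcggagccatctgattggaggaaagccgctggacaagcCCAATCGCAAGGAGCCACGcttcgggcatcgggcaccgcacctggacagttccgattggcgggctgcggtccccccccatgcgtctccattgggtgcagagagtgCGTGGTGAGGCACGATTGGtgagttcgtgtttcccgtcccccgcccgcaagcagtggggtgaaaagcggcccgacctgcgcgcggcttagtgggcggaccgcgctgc
Pdia6: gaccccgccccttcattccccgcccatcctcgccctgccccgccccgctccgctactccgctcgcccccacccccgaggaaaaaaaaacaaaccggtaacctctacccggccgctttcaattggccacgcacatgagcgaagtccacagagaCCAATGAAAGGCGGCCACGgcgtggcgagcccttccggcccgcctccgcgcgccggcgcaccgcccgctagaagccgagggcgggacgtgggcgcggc
Creld2: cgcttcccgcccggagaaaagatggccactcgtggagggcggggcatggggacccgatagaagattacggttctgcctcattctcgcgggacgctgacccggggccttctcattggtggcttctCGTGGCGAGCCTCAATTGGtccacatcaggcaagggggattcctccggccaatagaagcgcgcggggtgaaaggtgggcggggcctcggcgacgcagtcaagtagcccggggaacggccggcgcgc
Herpud1: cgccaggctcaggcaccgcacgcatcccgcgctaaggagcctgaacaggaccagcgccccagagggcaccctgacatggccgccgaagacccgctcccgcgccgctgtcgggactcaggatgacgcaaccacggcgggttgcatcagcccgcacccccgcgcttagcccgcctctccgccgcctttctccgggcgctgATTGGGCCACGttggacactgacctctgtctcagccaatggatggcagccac
Xbp1: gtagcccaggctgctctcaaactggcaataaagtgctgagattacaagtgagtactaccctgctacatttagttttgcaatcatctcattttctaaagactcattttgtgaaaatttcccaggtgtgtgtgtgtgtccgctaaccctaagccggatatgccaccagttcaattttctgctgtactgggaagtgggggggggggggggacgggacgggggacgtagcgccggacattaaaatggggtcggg
Hspa5 is at chr2:34771840-34772089 (plus strand), Hsp90b1 at chr10:86705445-86705694 (minus), Pdia6 at chr12:17266339-17266588 (plus), Creld2 at chr15:88819396-88819645 (plus), Herpud1 at chr8:94386179-94386428 (plus) and Xbp1 at chr11:5520391-5520640 (plus). The GENCODE M21 gene models of Hspa5, Hsp90b1 and Pdia6 begin inside these stretches.

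The *Hspa5* element, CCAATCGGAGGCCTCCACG, spans bases −65 to −47, where −1 is the base before the RefSeq start. *Hsp90b1* carries a pair: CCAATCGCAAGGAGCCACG at −212 to −194 and, on the opposite strand, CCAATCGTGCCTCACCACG at −107 to −89. *Pdia6* has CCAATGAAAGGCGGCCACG at −98 to −80, and *Creld2* has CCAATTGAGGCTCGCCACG at −126 to −108 on the opposite strand. The ERSE-II of *Herpud1*, ATTGGGCCACG, lies at −52 to −42. The box CCACG alone, which is part of these elements, was in 8 of the 9 windows. It was also in 32.8% of all promoters and in 48.6% of the promoters of tested genes. Of the promoters of tested genes, 0.161% held an ERSE and 0.0804% an ERSE-II.

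Other motifs were rare in these windows. The XBP1 and ATF6 site TGACGTGG was in none of the 9, against 0.676% of all promoters, and its variant TGACGTGA was in 1, *Hspa5* at −157 to −150, against 0.441%. An ATF4 element, TGATGCAA, was found in *Herpud1* at −112 to −105 on the opposite strand, against 0.895% of all promoters. The AP-1 site TGANTCA, the kind of site JUN binds, was found in *Hspa5* at −182 to −176, against 7.81%. In the same order, the shares among promoters of tested genes were 0.875%, 0.744%, 0.513% and 4.56%. A match is a stretch of letters and no evidence of binding.

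**Figure D2:**
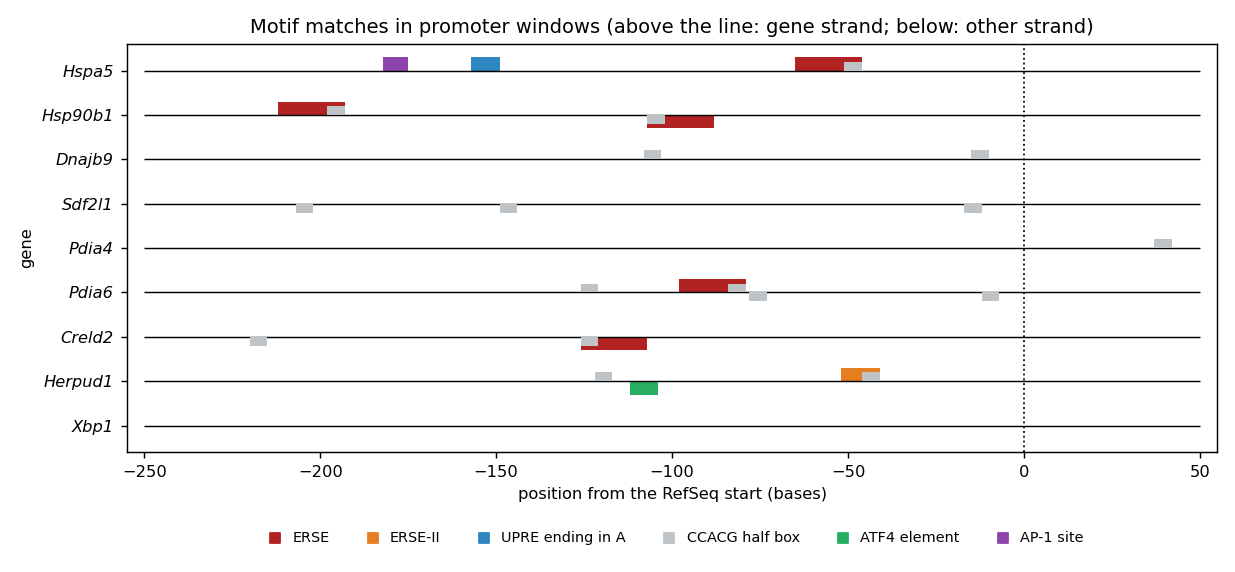
Motif matches in the promoters of 9 of the 10 genes. The horizontal axis gives the distance in bases from the RefSeq start, from 250 before to 50 after, each row is a gene, and marks above and below the line are matches on the strand of the gene and on the opposite strand. ERSE matches lie in Hspa5, Hsp90b1, Pdia6 and Creld2, and the ERSE-II match lies in Herpud1.

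The chaperones come first. *Hspa5* (chr2:34771970-34777547, GENCODE M21 on GRCm38) encodes BiP, the HSP70 of the ER and the protein that holds the stress sensors inactive. Its libraries read 378 and 385 TPM under DMSO, 450 and 456 under PFI-3, 321 and 369 under BI-9564, and 456 and 474 under P+B. Both PFI-3 libraries and both P+B libraries lay above DMSO, and both BI-9564 libraries lay below it, although those 2 differed from each other more than any other pair. *Hsp90b1* (chr10:86690209-86705509, minus strand) encodes GRP94, the HSP90 of the ER, which folds integrins and Toll-like receptors. It read 399 and 409 TPM under DMSO, 437 and 451 under PFI-3, 319 and 352 under BI-9564, and 392 and 398 under P+B. Here P+B lay just below DMSO, unlike *Hspa5*.

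The co-chaperones *Dnajb9* (chr12:44205559-44210326, minus strand), which encodes the BiP partner ERdj4, and *Sdf2l1* (chr16:17130138-17132383, minus strand), which encodes a partner of the BiP cycle, were low. *Dnajb9* read 10 and 8 TPM under DMSO, 12 and 8 under PFI-3, 10 and 7 under BI-9564, and 9 in both P+B libraries. *Sdf2l1* read 31 in both DMSO libraries, 30 and 38 under PFI-3, 39 and 25 under BI-9564, and 38 and 30 under P+B. All groups of these 2 genes overlapped DMSO, and at this level a whole-number step of 1 TPM is a large part of the value of *Dnajb9*.

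*Pdia4* (chr6:47796141-47813430, minus strand) and *Pdia6* (chr12:17266545-17284770) encode protein disulfide isomerases, which make and reshuffle disulfide bonds. *Pdia4* read 152 and 145 TPM under DMSO, 175 and 167 under PFI-3, 122 and 119 under BI-9564, and 136 and 138 under P+B, so the 4 groups did not overlap. *Pdia6* read 209 and 195 under DMSO, 230 and 232 under PFI-3, 189 and 168 under BI-9564, and 207 and 211 under P+B. Its order was the same for the single compounds, but P+B overlapped DMSO. *Creld2* (chr15:88819646-88826683), whose protein is an ER-resident folding factor with EGF-like repeats, read 62 and 60 TPM under DMSO, 78 and 80 under PFI-3, 77 and 70 under BI-9564, and 79 and 74 under P+B. All 6 treated libraries of *Creld2* lay above both DMSO libraries, also with BI-9564, with which the other chaperones and isomerases read lower or overlapped DMSO.

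*Manf* (chr9:106838312-106891979, minus strand) encodes a small protein of the ER that is released under stress and protects neurons. It read 162 and 166 TPM under DMSO, 219 and 222 under PFI-3, 115 and 124 under BI-9564, and 186 and 158 under P+B. The single compounds lay on opposite sides of DMSO, and P+B overlapped it. *Herpud1* (chr8:94386438-94395377) encodes a membrane protein that organizes ER-associated degradation. Its libraries gave 23 and 19 TPM under DMSO, 27 and 29 under PFI-3, 15 and 17 under BI-9564, and 22 in both P+B libraries, the same pattern at a lower level. *Xbp1* (chr11:5520659-5525893) read 43 in both DMSO libraries, 40 and 48 under PFI-3, 36 and 23 under BI-9564, and 23 in both P+B libraries. PFI-3 overlapped DMSO for *Xbp1*, and 1 of the 2 BI-9564 libraries reached the P+B level while the other did not.

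Some of these values can hold reads of other genes. The annotation places *Manf* over *Dcaf1* and *Rbm15b*, *Pdia6* next to *Atp6v1c2* on the opposite strand, *Herpud1* over the antisense gene *Gm15890*, and *Hsp90b1* over the pseudogene *1810014B01Rik*. Whether the counting used strand is not given in the sources used here, so reads from such overlaps cannot be told apart.

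PFI-3 against DMSO asked what blocking the BRG1 bromodomain did to these genes while JUN was induced. All 10 differences were above 0, as were 53.4% of all tested genes (9 of 10, without *Xbp1*, when the libraries were centred on their medians), with a median of 0.20 on the log2(TPM + 1) scale against 0.02 over all tested genes. In 7 of the 10 genes both PFI-3 libraries lay above both DMSO libraries, which was the case for 16.5% of all tested genes. None of the 10 passed the test, and none of the 10222 genes did (0%), with or without the replicate number as a block. At an unadjusted p under 0.05 stood 5 of the 10 and 694 of all genes (6.79%). Closest to the threshold were those of *Manf* (0.42 ± 0.10 SE, limma adjusted p = 0.506), *Creld2* (0.37 ± 0.10, adjusted p = 0.559) and *Hspa5* (0.25 ± 0.08, adjusted p = 0.6). *Herpud1* differed by 0.40 ± 0.16 (adjusted p = 0.669) and *Pdia4* by 0.20 ± 0.08 (adjusted p = 0.69). For *Xbp1* the difference was 0.03, with a 95% interval from −0.44 to 0.49.

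BI-9564 against DMSO asked the same of the BRD7 and BRD9 bromodomains. Of the 10 differences, 8 lay below 0, against 45.7% of all tested genes (9 of 10 under quantile normalization or median centring, which moved *Sdf2l1* below 0). The median was −0.22 against 0.02 over all tested genes. Both BI-9564 libraries lay below both DMSO libraries in 7 of the 10, against 18.3% of all genes. The test called none of the 10 and 11 of all genes (0.108%), or 156 (1.53%) with the replicate block, again with none of the 10. At an unadjusted p under 0.05 stood 6 of the 10 and 14.9% of all genes. This comparison shares its DMSO libraries with the one before. *Manf* differed by −0.45 ± 0.10 (adjusted p = 0.126), *Pdia4* by −0.30 ± 0.08 (adjusted p = 0.173) and *Hsp90b1* by −0.27 ± 0.07 (adjusted p = 0.177). *Creld2* lay on the other side, at 0.26 ± 0.10 (adjusted p = 0.289). *Xbp1* read −0.56 ± 0.20 (adjusted p = 0.268), but this rested on the library at 23 TPM: without BI-9564 replicate 2 the difference was −0.25, and without replicate 1 it was −0.87.

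P+B against DMSO gave the only call against the control. *Xbp1* fell from 43 TPM in both DMSO libraries to 23 in both P+B libraries, a log2 difference of −0.87 ± 0.20 (95% interval −1.34 to −0.41, limma adjusted p = 0.0489). It was 1 of 409 genes called (4.0%), of which 131 were higher and 278 (2.72%) lower (81 and 305 under quantile normalization, 86 and 401 under median centring). With the replicate block, 718 genes were called (7.02%), *Xbp1* among them (adjusted p = 0.0314). The call stood close to the threshold. It was lost in the fit of the DMSO and P+B libraries alone (adjusted p = 0.0993) and when any 1 of the DMSO, PFI-3 or P+B libraries was left out (adjusted p from 0.0829 to 0.197), and kept without either BI-9564 library. The other 9 genes did not pass. *Creld2* read 0.32 ± 0.10 (adjusted p = 0.11) and *Hspa5* 0.28 ± 0.08 (adjusted p = 0.0882), and both had their P+B libraries above both DMSO libraries, as 28.6% of all genes did. The remaining 7 lay within 0.12 of 0 on the log2 scale, and the median over the 10 was 0.06, equal to that over all genes. With each library centred on its median, the median of the 10 turned to −0.04.

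**Figure D3:**
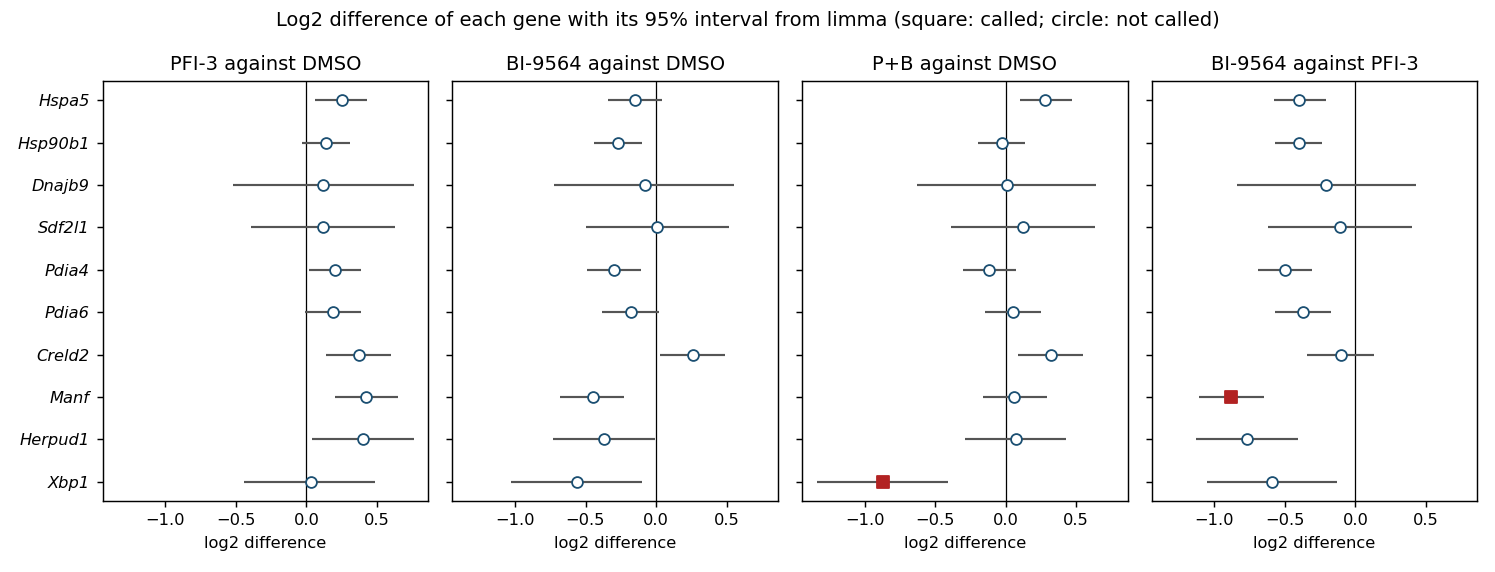
Differences of the 10 genes in 4 comparisons. The horizontal axis gives the difference in log2(TPM + 1), points are limma estimates with 95% intervals from 2 libraries per group, filled red squares mark genes past the test and open circles those that did not pass. The squares are Xbp1 in P+B against DMSO (−0.87) and Manf in BI-9564 against PFI-3 (−0.88).

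BI-9564 against PFI-3 set the inhibitors side by side, at doses that the labels do not give. All 10 differences lay below 0, against 48.5% of all tested genes, with a median of −0.40 against 0.00 over all tested genes, and 8.93% of all genes lay below that median. In 8 of the 10, both BI-9564 libraries lay below both PFI-3 libraries, against 19.9% of all genes, and *Dnajb9* and *Sdf2l1* were the 2 whose libraries did overlap. *Manf* was 1 of the 11 genes called (0.108%), 8 of them lower with BI-9564 (0.0783%). It stood at 219 and 222 TPM against 115 and 124, a log2 difference of −0.88 ± 0.10 (95% interval −1.11 to −0.65, limma adjusted p = 0.0207). The size hardly moved, from −0.93 to −0.83, when any 1 of the 8 libraries was left out, but the adjusted p then rose to between 0.0912 and 0.269, past the threshold each time, and it was 0.334 when the 4 libraries were compared alone.

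With the replicate number as a block, *Herpud1* passed as well (−0.77 ± 0.16, adjusted p = 0.105 without the block and 0.0497 with it). The block called 151 genes in all (1.48%). The abundant chaperones and isomerases had precise but small differences: *Pdia4* −0.50 ± 0.08 (adjusted p = 0.0727), *Hsp90b1* −0.40 ± 0.07 (adjusted p = 0.0828), *Hspa5* −0.40 ± 0.08 (adjusted p = 0.11) and *Pdia6* −0.37 ± 0.09 (adjusted p = 0.138). *Xbp1* read −0.59 ± 0.20 (adjusted p = 0.268), from −0.90 to −0.28 depending on which BI-9564 library was left out. The differences of *Creld2* (−0.10, 95% interval −0.34 to 0.13), *Sdf2l1* (−0.11, −0.62 to 0.40) and *Dnajb9* (−0.21, −0.84 to 0.43) were within their errors, and for the last 2 the intervals leave room for differences as large as those of the chaperones.

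With and without an ER stress element, the medians were close. The 5 with an ERSE or ERSE-II had a median difference of −0.40 between BI-9564 and PFI-3, and the other 4 in the promoter table had −0.35. Among 19 other tested genes that hold such an element, 10 lay below 0, against 48.5% of all tested genes. Both BI-9564 libraries lay below both PFI-3 libraries in 3 of the 19, against 19.9% of all tested genes. The median of the 19 was −0.03 (range −0.6 to 0.42). Whether the elements have a part in the differences was not tested.

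P+B against PFI-3 gave differences below 0 for 8 of the 10 genes, with *Sdf2l1* at exactly 0 and *Hspa5* above it (10 of 10 below 0 under median centring), with a median of −0.16. Over all tested genes, 45.0% lay below 0. None was called in limma, against 134 of all genes (1.31%), and 3 stood at an unadjusted p under 0.05, against 16.6% of all genes. *Xbp1* had the largest difference (−0.90 ± 0.20, adjusted p = 0.079), and it passed with the replicate block (adjusted p = 0.0448), when 351 genes did (3.43%). *Manf* read −0.36 ± 0.10 (adjusted p = 0.116) and *Pdia4* −0.32 ± 0.08 (adjusted p = 0.106). P+B against BI-9564 gave higher readings for 9 of the 10, with *Xbp1* as the exception (−0.31 ± 0.20), and a median of 0.21, where 54.3% of all genes lay above 0. Of all genes, 20 were called there (0.196%) and 82 with the block (0.802%), and none of the 10 was, although 5 stood at an unadjusted p under 0.05 (7.97% of all genes). *Manf* read 0.52 ± 0.10 and *Hspa5* 0.43 ± 0.08 (adjusted p = 0.152 for both).

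The interaction compared P+B with the sum of the differences of both single compounds from DMSO. Because the doses in P+B are not settled, it describes the values and cannot decide whether the compounds add up. None of the 10 passed, nor did any of the 10222 genes (0%), and 333 of all genes (3.26%) but none of the 10 stood at an unadjusted p under 0.05. Their median was 0.01, with 5 above and 5 below 0. The estimates farthest from 0 were *Xbp1* at −0.34 (95% interval −0.99 to 0.32), *Creld2* at −0.31 (−0.64 to 0.02) and *Hspa5* at 0.19 (−0.08 to 0.45). These intervals are wide, and departures of such a size from a sum were not detectable with 2 libraries per group.

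The rest of the pathway was read from 7 lists. Of 13 other ER chaperones and co-chaperones, 4 were above and 9 below 0 in BI-9564 against PFI-3, with a median of −0.02 and no call. *Calr* and *Hyou1* were singled out from this list after their values were seen. *Calr*, the lectin chaperone calreticulin, read 849 TPM in both DMSO libraries, 981 and 957 under PFI-3, 751 and 688 under BI-9564, and 895 and 872 under P+B (BI-9564 against PFI-3 −0.43 ± 0.07, adjusted p = 0.0667). *Hyou1*, which encodes the HSP110 of the ER, read 89 and 97 TPM under DMSO, 103 and 94 under PFI-3, 78 and 70 under BI-9564, and 97 and 99 under P+B (−0.41 ± 0.10, adjusted p = 0.157). The 3 members of the list farthest from DMSO with P+B were higher: *Dnajc1* (6 and 9 TPM under DMSO, 15 and 20 under P+B, difference 1.13 ± 0.29, adjusted p = 0.0661, and 0.0261 with the block), *Sil1* (0.80 ± 0.31, adjusted p = 0.172) and *Dnajc3* (0.56 ± 0.19, adjusted p = 0.125).

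The other ER lists moved little between the single compounds. Their medians in BI-9564 against PFI-3 were −0.05 for 9 disulfide enzymes, 0.04 for 17 degradation genes, −0.08 for 26 genes of translocation and early traffic, and 0.08 for 8 sensors and related factors, with none called. Of the disulfide enzymes with P+B, *Ero1l*, the oxidase that recharges the isomerases, read 31 and 37 TPM under DMSO and 47 and 42 under P+B (0.38 ± 0.14, adjusted p = 0.146), *Txndc5* 0.18 ± 0.11 and *Prdx4* −0.15 ± 0.13.

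The degradation list leaned higher with P+B, with 14 of 17 above DMSO and a median of 0.31, against 57.6% of all genes above 0 and a median of 0.06. *Nploc4*, a cofactor of the VCP ATPase, read 49 and 54 TPM under DMSO and 71 and 73 under P+B (0.48 ± 0.10, adjusted p = 0.0428), but its fold was under 1.5. *Os9* (0.55 ± 0.19, adjusted p = 0.143) and *Edem3* (0.46 ± 0.14, adjusted p = 0.109), which act on misfolded glycoproteins, did not pass.

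Among the translocation and traffic genes, *Sec61g*, a subunit of the translocon, read 50 and 45 TPM under DMSO and 28 and 22 under P+B (−0.91 ± 0.21, adjusted p = 0.0507, and 0.0335 with the block). *Sec24d*, a COPII coat subunit, read 39 in both DMSO libraries and 26 in both P+B libraries (−0.57 ± 0.13, adjusted p = 0.0494), under the fold of 1.5, and *Kdelr3* read 0.67 ± 0.34 (adjusted p = 0.294).

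The sensors themselves were low. *Ern1*, which encodes IRE1α, the enzyme that splices *Xbp1* mRNA, read 7 and 5 TPM under DMSO, 7 and 6 under PFI-3, 12 and 9 under BI-9564, and 7 and 11 under P+B. *Eif2ak3*, which encodes PERK, read 17 and 18 TPM under DMSO and 23 and 21 under P+B (0.31 ± 0.17, adjusted p = 0.328). *Creb3l2*, a relative of ATF6, read −0.39 ± 0.28 (adjusted p = 0.459).

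The PERK and ATF4 branch had medians on the same side of 0 as those of the 10 genes for the single compounds. Its own 10 genes had a median of 0.33 under PFI-3, −0.15 under BI-9564 and −0.20 under P+B, each against DMSO. In BI-9564 against PFI-3 the median was −0.53, 7 of the 10 lay below 0 and 2 passed, or 4 with the replicate block. Of all tested genes, 48.5% lay below 0 there and 0.108% passed, or 1.48% with the block. *Atf4*, named here because it passed, read 305 and 297 TPM under DMSO, 383 and 419 under PFI-3, 244 and 227 under BI-9564, and 283 and 258 under P+B (BI-9564 against PFI-3 −0.76 ± 0.09, limma adjusted p = 0.0207). *Trib3*, an ATF4 target that feeds back on it, read 44 and 39 TPM under DMSO, 50 and 65 under PFI-3, 21 and 23 under BI-9564, and 21 and 18 under P+B. It passed in BI-9564 against PFI-3 (−1.34 ± 0.17, adjusted p = 0.0385) and fell with P+B against DMSO (−1.05 ± 0.17, adjusted p = 0.0124), so P+B lay with BI-9564 for *Trib3*. Like *Manf*, *Atf4* and *Trib3* lost the call between the single compounds when any 1 library was left out (adjusted p from 0.0912 to 0.287). The call of *Trib3* with P+B was lost without either DMSO or either P+B library (adjusted p from 0.0602 to 0.11).

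*Chac1*, which degrades glutathione, had the order of *Trib3* and read 10 and 6 TPM under DMSO, 13 and 16 under PFI-3, 3 and 2 under BI-9564, and 3 in both P+B libraries. At 2 or 3 TPM, a whole-number step of 1 TPM is a large part of the value. *Chac1* passed in P+B against PFI-3 (−1.95, limma adjusted p = 0.0348, and 0.0186 with the block). That call was not run under the other alternatives. With the block, *Chac1* also passed in BI-9564 against PFI-3 (−2.15 ± 0.34, adjusted p = 0.0667 without the block and 0.0267 with it). *Nupr1*, a stress-induced chromatin protein and the other gene that passed with the block only, read 16 and 19 TPM under DMSO, 38 and 22 under PFI-3, 4 and 7 under BI-9564, and 12 and 9 under P+B (BI-9564 against PFI-3 −2.24 ± 0.32, adjusted p = 0.0667 without the block and 0.0267 with it). *Ddit4*, an inhibitor of mTORC1, ran opposite, at 27 and 12 TPM under DMSO, 20 and 15 under PFI-3, 41 and 33 under BI-9564, and 41 and 40 under P+B (P+B against DMSO 1.12 ± 0.32, adjusted p = 0.0887, and 0.0245 with the block). *Sesn2*, the other gene of the list that passed with P+B and was named for that, rose from 62 and 43 TPM under DMSO to 98 and 93 (0.87 ± 0.17, adjusted p = 0.0267). The call held without DMSO replicate 1 (adjusted p = 0.037) and was lost without each of the other 7 libraries (adjusted p from 0.0583 to 0.146) and with only the libraries compared (0.173). Without DMSO replicate 2 the difference was 0.61. *Ddit3* was also added after its values were seen. It read 13 and 5 TPM under DMSO, 21 and 19 under PFI-3, 10 and 6 under BI-9564, and 16 and 17 under P+B. Unlike for *Trib3* and *Chac1*, P+B lay nearer to PFI-3 than to BI-9564, and above DMSO (0.93 ± 0.39, limma adjusted p = 0.201). That difference was 0.32 when DMSO replicate 2 was left out. BI-9564 against PFI-3 gave −1.26 ± 0.39 for *Ddit3* (adjusted p = 0.228).

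The list of cytosolic and mitochondrial heat shock chaperones had medians below 0 against DMSO in all treatments. For its 12 tested members the median was −0.13 under PFI-3, −0.18 under BI-9564 and −0.23 under P+B against DMSO, and −0.06 in BI-9564 against PFI-3, with no call. *Hsph1*, the cytosolic HSP110, read 152 and 153 TPM under DMSO and 118 and 113 under P+B (−0.40 ± 0.09, adjusted p = 0.0456), under the fold of 1.5, *Hspb1* read −0.40 ± 0.15 (adjusted p = 0.164), and *Hspa1b* read 0.69 ± 0.31 (adjusted p = 0.237).

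**Figure D4:**
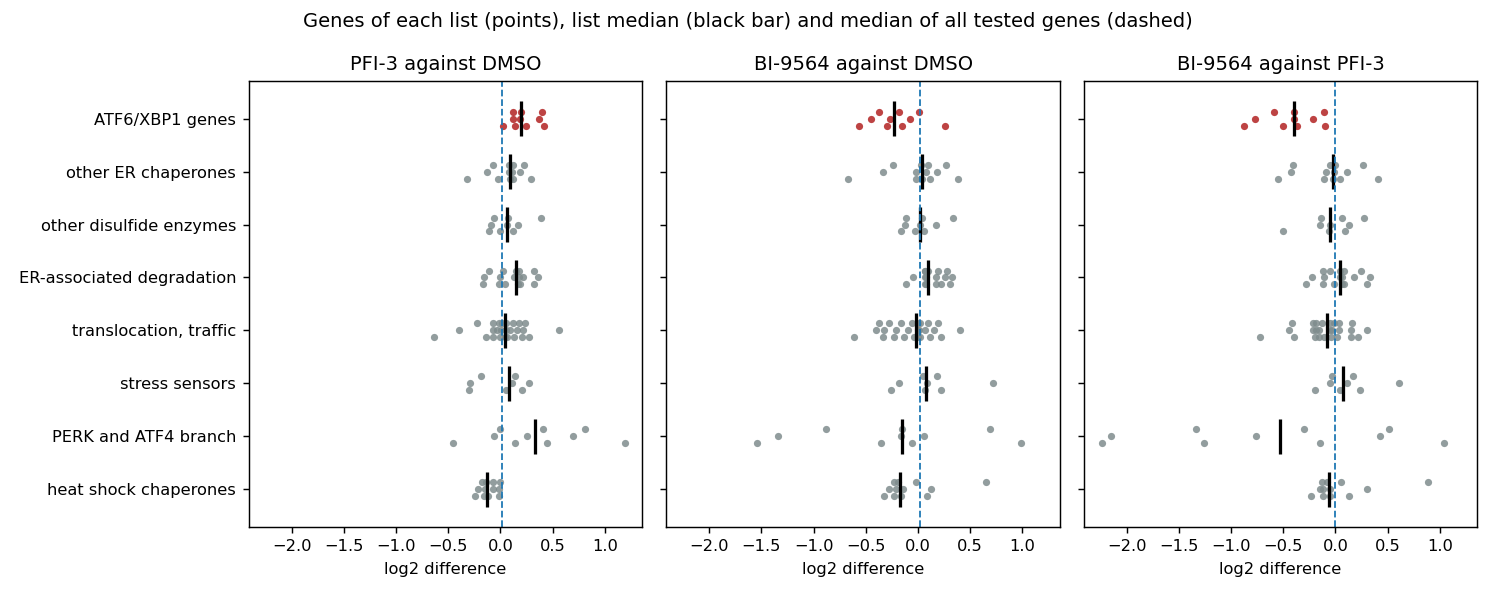
The 10 genes beside 7 other lists of the ER, its stress branches and the heat shock chaperones. Each point is a gene, each row is a list, and the horizontal axis gives the difference in log2(TPM + 1) in 3 comparisons. Black bars are list medians and the dashed line is the median of all tested genes. In BI-9564 against PFI-3 the 10 genes have a median of −0.40 and the PERK and ATF4 list one of −0.53, while the other lists lie between −0.08 and 0.08.

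The 10 genes did not vary as a single block. Over the 8 libraries, the Pearson correlation of a gene with the mean of the other 9, on the centred log2 scale, was 0.96 for *Pdia6*, 0.94 for *Pdia4*, 0.89 for *Manf*, 0.87 for *Herpud1* and 0.82 for *Hsp90b1*. It was 0.55 for *Hspa5*, 0.38 for *Xbp1* and *Dnajb9*, 0.28 for *Sdf2l1* and 0.23 for *Creld2*. The genes outside the set with the pattern most like its mean were *Mcf2* (r = 0.977 over 8 libraries), *Sephs2* (0.974), *Iqgap3* (0.974), *Rad9a* (0.963) and *Slc29a1* (0.962). They are a guanine nucleotide exchange factor, selenophosphate synthetase, an IQ motif scaffold, a checkpoint clamp subunit and a nucleoside transporter, and none of them was on the ER lists. *Slc29a1* read 111 TPM in both DMSO libraries, 142 and 128 under PFI-3, 93 and 75 under BI-9564, and 104 and 98 under P+B. These correlations describe 8 libraries of 4 treatments, and libraries of a treatment share it.

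The libraries were checked against their labels. All 8 ES cell markers were expressed, with summed levels of 3512 to 5377 TPM that overlapped between all groups. Of the 8, all lay lower with BI-9564 than with PFI-3 (median −0.55), against 48.5% of all tested genes (median 0.00). Of these markers 1 passed, or 4 with the replicate block, against 0.108% and 1.48% of all tested genes. The part of the markers in the differences of the ER genes was not tested. The 7 primitive endoderm markers summed to 2 to 6 TPM, with *Sox7*, *Pdgfra*, *Afp* and *Ttr* at 0 in all libraries, and the 7 fibroblast markers summed to 0 to 5. *Jun* read 1970 and 2877 TPM under DMSO, 1570 and 2227 under PFI-3, 2071 and 3011 under BI-9564, and 1569 and 2159 under P+B. It was higher in replicate 2 of every group. Within each replicate number it was lower with PFI-3 and with P+B than with DMSO or BI-9564. The part of *Jun* in the differences of the ER genes was not tested. Each library had 10285 to 10451 genes at 5 TPM or more. Depth is unknown because TPM does not keep it, and the labels do not say whether replicates were separate cultures, so p-values measure only the spread between these libraries. An exact permutation test of 2 against 2 libraries cannot go below p = 0.333, two-sided, and was not used.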

How the data were processed

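Polyadenylated RNA of JUN TetON ESCs was measured by RNA-seq in 4 groups of 2 libraries, formed from the labels. Per the labels, mRNA was enriched with oligo-dT beads and libraries were made with a VAHTS mRNA-seq kit. The submitters' processing notes name bcl2fastq, Bowtie2 2.2.5, RSEM 1.3.0 and mm10. The annotation and the strand setting are not given in the sources used here. The authors deposited 1 table of 50600 gene names, each value being a whole-number score that stands for TPM. All values were whole and the libraries summed to 991574 to 991897. TPM keeps no depth, so DESeq2, which the authors used, was not run, and counting error is unknown. Of the rows, 187 shared a repeated name and 33075 were at 0 in all libraries.

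Values were taken as log2(value + 1) and analysed with limma 3.58.1 in R 4.3.3 (lmFit, eBayes with a trend on the mean), with all 8 libraries in a single fit and 4 residual degrees of freedom before moderation. Testing covered the 10222 genes whose mean reached 5. The Benjamini-Hochberg adjustment ran over all of them in each comparison, and a call needed an adjusted p under 0.05 and a fold of at least 1.5. The log2(value + 1) scale understates the change of low genes.

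Replicate numbers are shared by the groups in the labels. The replicate 1 minus replicate 2 differences correlated across genes in each of the 6 pairs of groups (Pearson's r 0.143 to 0.236). The main fit, which gave the calls and p-values wherever the block is not named, held the groups only. Therefore a second fit treated the numbers as pairs and held the replicate number as a block. It is given beside a result where it changed a call or moved a count by over 1.5 times.

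The 10 genes and the lists were chosen with earlier results of these data known. The genes named are the 10, up to 3 of each other list by the size of the difference of P+B from DMSO, and the 5 genes most correlated with the mean of the 10. *Atf4*, *Ddit3*, *Sesn2*, *Nupr1*, *Calr* and *Hyou1* were added after their values were seen. Alternatives were other pseudocounts, filters, scalings and thresholds, no trend, only the libraries compared, and each library left out in turn. Promoters were taken from the RefSeq table (GRCm38.p6) and gene positions from GENCODE M21 on GRCm38, with Python 3.11.15. Proteins were not used here.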

Additional observations from a re-analysis of the deposited data

How the results depend on the processing

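Counts of calls depended on the settings, and no call of a gene named here changed sign under the settings it was run with. TPM keeps no depth, so what depth limits is unknown. The single calls among the 10, *Xbp1* in P+B against DMSO and *Manf* in BI-9564 against PFI-3, went from 1 to 0 with a filter at a mean of at least 1, without a filter, without the trend, with only the libraries compared, and at an adjusted p under 0.01. The replicate block gave 2 in BI-9564 against PFI-3 and 1 in P+B against PFI-3, and changed no other call of the 10. Of all genes, P+B against DMSO called 201 without a filter, 718 with the block, 0 with only the libraries compared and 124 at an adjusted p under 0.01. BI-9564 against DMSO called 17 with a pseudocount of 5, 33 with a mean of at least 20, 21 under median centring and 156 with the block, and 0 with a mean of at least 1, without a filter, without the trend, with only the libraries compared and at 0.01. P+B against PFI-3 called 77, 6, 4, 351, 0 and 9 with a mean of at least 1, no filter, no trend, the block, only the libraries compared and 0.01. P+B against BI-9564 called 2, 0, 2, 82, 0 and 1 under the same settings. BI-9564 against PFI-3 called 0, 0, 0, 151, 0 and 0 under them, and 18 with a mean of at least 20. Median centring moved the medians of the 10 to −0.04 (P+B against DMSO), 0.15 (PFI-3 against DMSO), −0.27 (BI-9564 against DMSO) and −0.20 (P+B against PFI-3). A mean of at least 20 moved that of BI-9564 against DMSO to −0.27 and that of the interaction to 0.03, and a pseudocount of 5 moved the interaction to 0.00. The cause was not tested, except that a lower filter tests more genes, that *Dnajb9* drops out at a mean of at least 20 and that a smaller set of libraries leaves fewer degrees of freedom.

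Leaving out each library in turn gave 68 to 268 genes called in P+B against DMSO, 0 to 51 in P+B against PFI-3, 0 to 7 in P+B against BI-9564, and 0 to 1 in each of PFI-3 against DMSO, BI-9564 against DMSO, BI-9564 against PFI-3 and the interaction. Among the 10 genes it gave 0 to 1 calls in P+B against DMSO and 0 in the other comparisons. The medians of the 10 then ranged from −0.01 to 0.11 (P+B against DMSO), 0.16 to 0.24 (PFI-3 against DMSO), −0.29 to −0.20 (BI-9564 against DMSO), −0.21 to −0.16 (P+B against PFI-3), 0.16 to 0.32 (P+B against BI-9564), −0.45 to −0.38 (BI-9564 against PFI-3) and −0.04 to 0.08 (interaction).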
